A study of Mus musculus with 16 samples.

Results

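The 5 genes described here, Cyp1a1, Cyp1b1, Ahr, Tiparp and Nqo1, were listed by name for their place in the aryl hydrocarbon receptor pathway, out of 28692 gene rows in a single-cell RNA sequencing table of mouse lung endothelial cells, the lining cells of blood and lymph vessels. The list was chosen on the measured level of Cyp1a1 by day in these same cells, so the differences between days below are descriptions and carry no test. Female C57BL/6N mice gave sorted lung endothelial cells in 4 states: wild-type animals (d0), animals bearing a primary tumour (d15), animals after its resection (d22) and animals with metastases (d36). Mice of the 3 later days had been given Lewis lung carcinoma cells, a tumour line of mouse lung, under the skin. Age, the number of animals and any pooling of animals are not stated there. Libraries were made with version 2 of the Chromium 3′ reagents of 10x Genomics, where the count is of 1 tag near the 3′ end of each transcript molecule, and the labels list 4 libraries per day.

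The cell names carry the day and no library, so each day was 1 pooled sample, with no measured spread between libraries or mice. Of 9036 cells, 8879 were kept as endothelial, of which 2627 came from d0, 1487 from d15, 3186 from d22 and 1579 from d36. Their summed counts were between 6693991 (d36) and 27565671 (d22), and the median count per cell was 7645 for d0, 4168 for d15, 7665.5 for d22 and 3408 for d36. The endothelial markers, 8 of 8 detected on every day, summed to between 10391 and 11885 counts per 1000000 (CPM). Of the non-zero values of the table, 47.9% equalled 4 and 59.6% were multiples of 4, so 95% intervals were computed on counts divided by 4. They cover counting error only, take molecules as independent, and are too narrow for a gene whose counts lie in few cells.

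The aryl hydrocarbon receptor, encoded by Ahr, is a ligand-activated transcription factor that is held in the cytoplasm by chaperones. On binding planar aromatic compounds or some tryptophan metabolites it enters the nucleus, pairs with ARNT and binds DNA elements with the core GCGTG, which raises Cyp1a1 and Cyp1b1, cytochrome P450 enzymes that oxidise such compounds. Tiparp, an ADP-ribosyltransferase, is both a target and a repressor of the receptor, and Nqo1, a quinone reductase, is a target of the receptor and of NRF2, the transcription factor of the oxidative stress response. In the lung, the endothelium is a known site of Cyp1a1 induction.

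The windows just before the transcription start are shown for Cyp1a1, Tiparp and Nqo1, the detected genes of the target group that have one, because the days set these targets apart. They are the 250 bases before the RefSeq start on GRCm38, 5′ to 3′ on the strand of the gene, with each GCGTG in capitals, which reads CACGC where it lies on the other strand; the Cyp1a1 window is chr9:57697363-57697612 on the plus strand, that of Tiparp chr3:65528197-65528446 on the plus strand and that of Nqo1 chr8:107403206-107403455 on the minus strand.
Cyp1a1: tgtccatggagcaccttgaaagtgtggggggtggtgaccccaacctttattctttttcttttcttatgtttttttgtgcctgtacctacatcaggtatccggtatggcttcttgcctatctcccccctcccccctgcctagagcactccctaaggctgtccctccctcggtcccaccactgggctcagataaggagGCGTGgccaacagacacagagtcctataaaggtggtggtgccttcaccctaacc
Tiparp: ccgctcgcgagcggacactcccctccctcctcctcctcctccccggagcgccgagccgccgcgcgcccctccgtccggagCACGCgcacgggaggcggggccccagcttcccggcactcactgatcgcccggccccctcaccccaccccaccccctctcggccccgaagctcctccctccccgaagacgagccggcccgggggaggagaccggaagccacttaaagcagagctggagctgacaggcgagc
Nqo1: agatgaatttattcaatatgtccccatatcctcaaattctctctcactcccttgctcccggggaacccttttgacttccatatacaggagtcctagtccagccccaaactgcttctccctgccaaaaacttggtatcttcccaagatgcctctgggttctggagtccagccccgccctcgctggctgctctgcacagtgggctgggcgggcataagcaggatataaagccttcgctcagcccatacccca
The Cyp1a1 window held 1 GCGTG, 54 bases before the start on the strand of the gene. The Tiparp window held 1 on the other strand, 170 bases before the start. The Cyp1b1 window, chr17:79715062-79715311 on the minus strand, held 1 at 76 bases, also on the other strand. The Nqo1 window held none. Of 32851 such mouse windows, 28.2% held GCGTG on either strand, so its presence in 3 of 4 windows is a description only. The core of the NRF2 element, TGACNNNGC, was searched on both strands as well and lay in 10.2% of all windows and in 0 of the 4. No window of Ahr is shown, and bases outside the windows were not searched for either core. The genes themselves lie at chr9:57687928-57703824 (Cyp1a1), chr17:79701537-79715061 (Cyp1b1), chr12:35497974-35535038 (Ahr), chr3:65528410-65555518 (Tiparp) and chr8:107388225-107403206 (Nqo1) in the GENCODE annotation of GRCm38. The Cyp1a1 window lies inside the GENCODE span of its gene, so the RefSeq start that it precedes is not the start of that span. The annotated gene Gm48236 overlaps Ahr and 4931440P22Rik overlaps Tiparp, each on the opposite strand.

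Cyp1a1 was the gene of the 5 with the lowest ratio to d0 among those above the floor of detection, on each later day. Over all endothelial cells its level was 1203 CPM at d0 (95% interval 1175 to 1232), 34.9 CPM at d15 (26.6 to 44.8), 57.1 CPM at d22 (51.6 to 63.1) and 50.8 CPM at d36 (40.6 to 62.8). All 3 later days were far below d0, and no interval of a later day came near that of d0. Relative to d0, Cyp1a1 was lower at d15 by 34.5-fold (26.8 to 45.3), at d22 by 21.1-fold (19.0 to 23.4) and at d36 by 23.7-fold (19.1 to 29.7). In bulk sums of this kind, fewer cells with the transcript and less of it per cell cannot be told apart, and the cell values that separate them are given further on. Among the later days, d22 was 1.64-fold higher than d15 (1.25 to 2.19), while d36 and d22 differed by less than their counting error (ratio 0.89, 0.69 to 1.13).

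**Figure D1:**
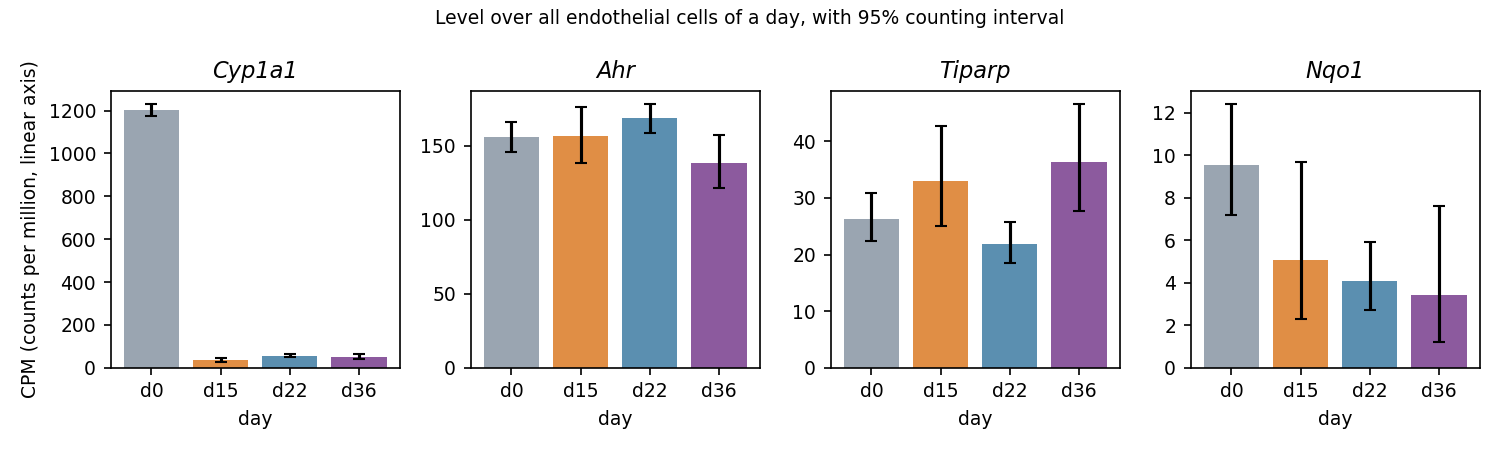
Levels of Cyp1a1, Ahr, Tiparp and Nqo1 in CPM on linear axes, each panel with its own scale, for the 4 days. Bars are the level over all endothelial cells of a day and error bars the 95% counting interval; the Cyp1a1 bar of d0 stands at 1203 CPM and its later bars between 34.9 and 57.1 CPM, while the Ahr bars lie between 138 and 168 CPM.

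A gene was called by size where its ratio to d0 was at least 1.5 in either direction with an interval that excluded 1, given at least 50 CPM on either day and 200 counts over both. That rule called 6.43% of 3715 measured genes at d15, 2% of 3558 at d22 and 7.57% of 3647 at d36. Of the 5 genes, 2 were measured, Cyp1a1, which passed the filter through its level at d0 in the comparison with d15, and Ahr; 1 of the 2, Cyp1a1, was called on each later day, always as lower, a direction called for 2.29% of the measured genes at d15, 1.74% at d22 and 3.32% at d36. The choice of the 5 genes used these contrasts, so nothing is read from that count. At d15 the called genes split into 154 higher and 85 lower than d0 (64.4% higher), a split that was 50.6% higher with TMM factors and 54.3% with DESeq2 size factors. Cyp1a1 had the lowest ratio of all measured genes on each later day, and was chosen with that known. The next lowest was AY036118 at d15 and d22, at 5.18-fold and 3.16-fold lower, and Ccl21a, a lymphatic chemokine, at d36, at 6.63-fold lower.

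The size of the Cyp1a1 difference rested partly on few cells. At d15, 7 cells of 1487 held 50% of its counts, and at d36 12 cells of 1579 did. Without the 1% of cells of each day that were highest in the gene it was 80.4-fold lower at d15 and 36.6-fold lower at d36. Those cells held 71.8% of its counts at d15 and 60.6% at d36, against 25.8% at d0. Leaving them out thus enlarges the fold by construction. With cells thinned to 500 molecules, shallower cells left out, it was 77.5-fold lower at d15, in 1 random draw that left 9 cells with the transcript there. With the deposited counts thinned to 2000 per cell it was 40.6-fold lower at d15.

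Cyp1b1, the other inducible P450 of the pathway, was at the edge of detection on every day. It had 6 counts in 3 cells at d0, 0 counts at d15, 1 count in 1 cell at d22 and 0 counts at d36, all at or under the floor of 3 molecules. That floor was 0.523 CPM for d0, 1.74 CPM for d15, 0.435 CPM for d22 and 1.79 CPM for d36, and no fold was computed. Cyp1a2, the liver-type neighbour of Cyp1a1, likewise had 4 counts at d0 and 0 on each later day.

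Ahr, the receptor, was detected on every day at much the same level. It had 155 CPM at d0 (145 to 166), 156 CPM at d15 (138 to 176), 168 CPM at d22 (159 to 178) and 138 CPM at d36 (121 to 157). Its ratio to d0 was 1.00 on d15 (0.87 to 1.15), 1.08 on d22 (0.99 to 1.18) and 0.89 on d36 (0.77 to 1.03), so each interval included 1 and left out a change of 1.5-fold in either direction. Between the later days, d36 was lower than d22 at a ratio of 0.82 (0.71 to 0.95), short of the size rule. Thus the days that differed more than 20-fold in Cyp1a1 differed by under 1.5-fold in the receptor.

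Tiparp had 26.4 CPM at d0 (22.3 to 30.9), 33.0 CPM at d15 (24.97 to 42.7), 21.9 CPM at d22 (18.6 to 25.7) and 36.3 CPM at d36 (27.8 to 46.7). Its highest levels were at d15 and d36, the days with the lowest counts per cell, and its lowest was at d22. Relative to d0 its ratio was 1.25 on d15 (0.91 to 1.71), 0.83 on d22 (0.66 to 1.05) and 1.38 on d36 (1.00 to 1.87). With under 50 CPM throughout it was not measured by the size rule. Unlike Cyp1a1 it showed no large drop below d0 on any later day.

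Nqo1 was sparse and lower after d0. It had 9.55 CPM at d0 (7.19 to 12.4; 58 cells), 5.06 CPM at d15 (2.28 to 9.69; 9 cells), 4.10 CPM at d22 (2.73 to 5.92; 36 cells) and 3.44 CPM at d36 (1.23 to 7.60; 7 cells). Its ratio to d0 was 0.53 on d15 (0.23 to 1.09), 0.43 on d22 (0.26 to 0.69) and 0.36 on d36 (0.12 to 0.85). The intervals at d22 and d36 excluded 1, but Nqo1 too lay under the filter on low levels, and at d15 and d36 its values rest on 9 and 7 cells.

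The share of cells with a Cyp1a1 count differed between days as its level did. At full depth 39.4% of cells at d0 had a count (37.6 to 41.3, Clopper-Pearson), 2.62% on d15, 7.31% on d22 and 3.23% on d36. After thinning each cell to 500 molecules, for which 146 cells of d15 and 210 of d36 were too shallow, the shares were 21.4% for d0, 0.671% for d15 (0.307 to 1.27), 2.39% for d22 (1.88 to 2.98) and 1.75% for d36 (1.13 to 2.60). Shares of Ahr moved with depth. At full depth the share of cells with it was 31.3%, 18.2%, 33.1% and 15.8% at d0, d15, d22 and d36, and after thinning 7.88%, 7.68%, 8.69% and 9.06%, with intervals that overlap. Thinned shares of Tiparp were 1.64%, 2.09%, 1.13% and 2.34% in the same order of days, and those of Nqo1 rest on 7, 1, 7 and 1 cells. As a reading of the background, Cyp1a1 had a count in 2 of 22 lymphatic-like cells at d0, the lowest share of any class there (9.09%, interval 1.12 to 29.2, median depth 5600 counts). In left-out fibroblast-led cells it had a count in 10 of 27 (37.0%, interval 19.4 to 57.6, median depth 9127 counts). These intervals overlap, and so few cells do not set a background level. The part of free RNA in the shares was not tested.

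**Figure D2:**
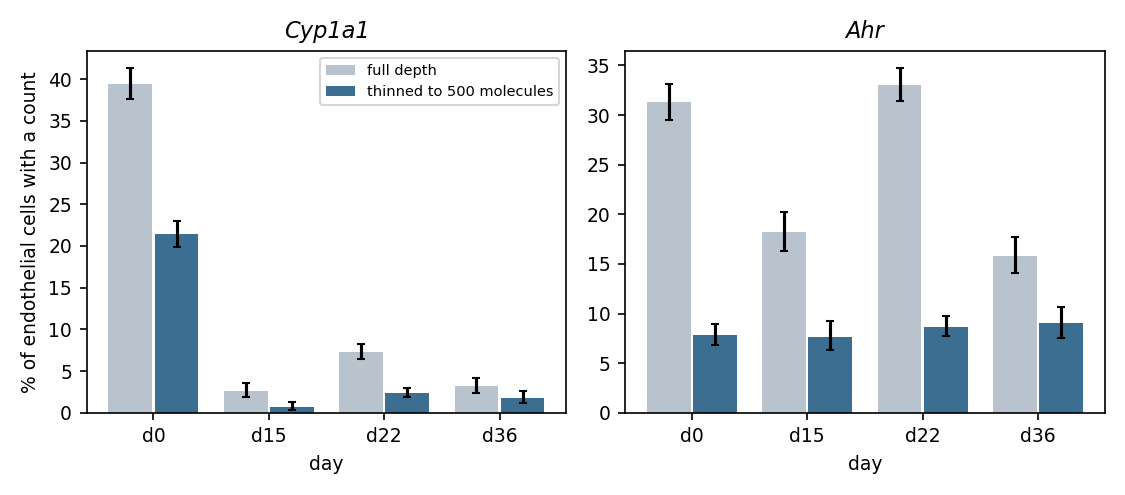
Percent of endothelial cells with at least 1 count of Cyp1a1 (left) and Ahr (right) by day, at full depth (grey) and after thinning each cell to 500 molecules (blue), with 95% Clopper-Pearson intervals. Thinned Cyp1a1 shares are 21.4% at d0 and at most 2.39% later, while thinned Ahr shares lie between 7.68% and 9.06%.

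Cells with Cyp1a1 on the later days also held less of it, at d22 with a median depth like that of d0. A cell with the transcript had a median of 8 counts at d0 and of 4 counts, the most frequent value of the table, at d15, d22 and d36. The highest cell held 584 counts on d0, 40 on d15, 58 on d22 and 20 on d36. At d0 59 cells held 100 counts or more, and on the later days 0 did.

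At d0 Cyp1a1 was spread over cells very unevenly. No count was seen in 60.6% of the 2627 cells; among the 1036 cells with a count the quartiles were 2, 8 and 29 counts, and the top 10% of them had 63 or more. The cell with 584 counts gave 4.08% of all its counts to this transcript. The top 10% of all cells held 78.8% of the Cyp1a1 counts, the top 1% held 25.8%, and 87 cells (3.31%) held 50%. The variance of its counts was 116 times the mean, and 27.7 times on the least number of molecules behind each value. The part of mouse and library in this spread was not tested, as the cell names carry neither.

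This unevenness was set beside 61 genes whose level at d0 was 0.8 to 1.25 times that of Cyp1a1. Cyp1a1 was detected in 39.4% of the cells, against 43.2% to 93.2% for those genes (median 84.8%). The top 10% of cells held 78.8% of its counts, against 25.5% to 67.0% of theirs (median 31.6%), and their variance was 5.09 to 54.8 times the mean. None of the 61 was seen in fewer cells than Cyp1a1 or was more concentrated, and the nearest on both counts was Emp2, a membrane protein of the tetraspan family. Thinned to 500 molecules, the top 10% of cells at d0 still held 75.9% of the Cyp1a1 molecules. Ahr, in comparison, had 50.04% of its counts in the top 10% of d0 cells, at a much lower level, and no cell above 23 counts.

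**Figure D3:**
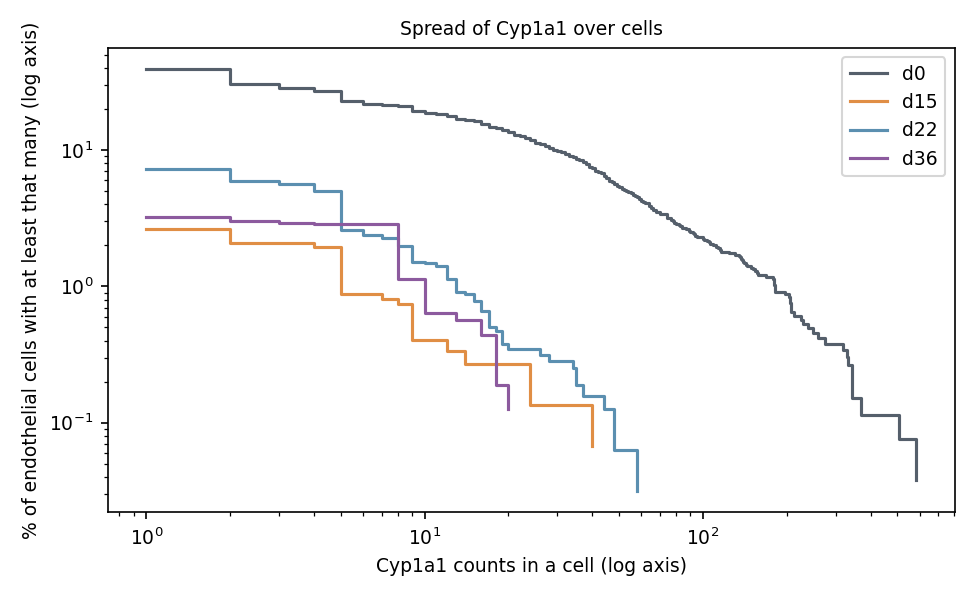
Percent of endothelial cells (log axis) that hold at least a given number of Cyp1a1 counts (log axis), with a line per day. The d0 line starts at 39.4% and runs out to 584 counts, and the lines of the later days start between 2.62% and 7.31% and end at 20 to 58 counts.

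Cells were then split by vessel class, from clusters made without the 5 genes and named by fixed markers: general capillary-like cells, aerocyte-like cells (the large Car4-positive capillary cells of the gas-exchange surface), arterial-like, venous-like and lymphatic-like cells. Only the general capillary name was given without a marker of the class among the 10 leading genes of a cluster. That held for the clusters led by Abhd2, Atf3, Ifit3b and Gm42477 (794, 778, 659 and 213 cells over all days). In the named classes the markers of the class summed to 9583 CPM in general capillary-like, 10668 in aerocyte-like, 3634 in arterial-like and 7057 in venous-like cells. The general capillary markers summed to 9315 CPM in arterial-like and 6625 CPM in venous-like cells as well, and to 850 CPM in aerocyte-like cells, so they set apart only the last. At d0 Cyp1a1 was highest in aerocyte-like cells, at 2278 CPM (2202 to 2355; 457 cells). General capillary-like cells had 915 CPM (881 to 951; 1454 cells) and venous-like cells 886 CPM (793 to 988; 142 cells), which did not differ beyond counting error. Arterial-like cells were lower, at 475 CPM (414 to 543; 231 cells). The 22 lymphatic-like cells had 3 counts of Cyp1a1 in 2 cells, 22.01 CPM, under their floor of 88.0 CPM.

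Aerocyte-like cells made up 17.4% of the d0 cells and 26.4% of their counts, and held 49.9% of the Cyp1a1 counts. Of the 59 d0 cells with 100 or more Cyp1a1 counts, 51 were aerocyte-like and 6 general capillary-like. Yet 240 of the 457 aerocyte-like cells had no Cyp1a1 count, so counts were uneven within the class as well, with a variance 180 times the mean. Whether these cells came from other mice or libraries than those with a count was not tested, as the cell names carry neither. With d0 cells in 4 bins of rising depth, Cyp1a1 was 982, 821, 1159 and 1441 CPM, and 8.83%, 9.28%, 8.38% and 43.1% of the cells were aerocyte-like. The 75 aerocyte-like cells of the cluster led by Tbx2, Lmo7 and Kdr had a median depth of only 4237 counts and 3052 CPM of Cyp1a1 (2700 to 3438).

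Within the general capillary-like cells of d0 the clusters differed about 3-fold. The cluster led by the MHC class II genes H2-DMa, Cd74 and H2-Eb1 had 1374 CPM of Cyp1a1 (1287 to 1467). The cluster led by the interferon-induced genes Ifit3b, Ifit3 and Ifit1 had 882 CPM (814 to 954), and that led by Kit, Hmcn1 and Nckap5 had 469 CPM (380 to 574). The arterial-like cells also held a pair of levels, 623 CPM (537 to 719) in the cluster led by Esm1 and 177 CPM (116 to 258) in the cluster led by Htra1. The clusters were made from these same cells, so these are descriptions of where the transcript lay.

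**Figure D4:**
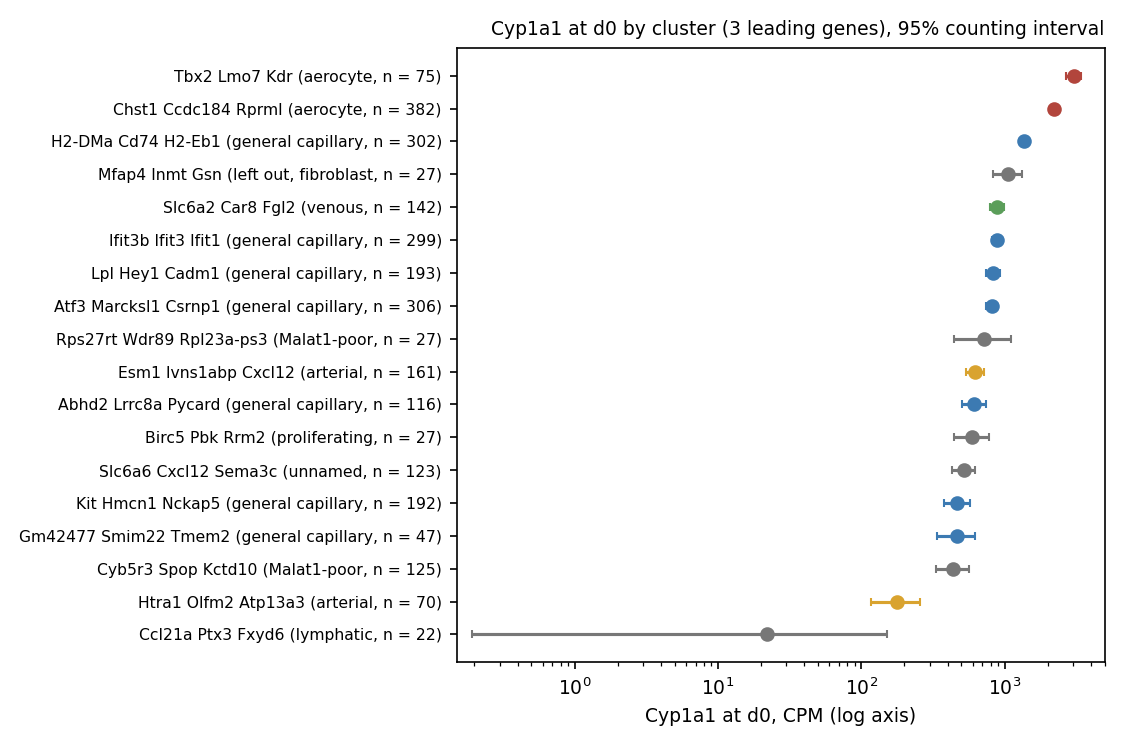
Cyp1a1 at d0 in CPM (log axis) in the larger clusters, labelled by its 3 leading genes, its class and its number of cells, with points coloured by class and bars for the 95% counting interval; Malat1-poor clusters had little of the nuclear RNA Malat1. The 2 aerocyte-like clusters stand highest at 2229 and 3052 CPM, the MHC class II cluster leads the general capillary-like cells at 1374 CPM, and the lymphatic-like cells are lowest at 22.01 CPM.

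Every vessel class with enough cells had less Cyp1a1 on the later days. In aerocyte-like cells it was 67.3 CPM at d15, 82.2 CPM at d22 and 103 CPM at d36, which is 33.8-fold, 27.7-fold and 22.1-fold below d0. The make-up of this class differed between days: the cluster led by Tbx2 gave 75 of its 457 cells at d0 and 162 of 244 at d36. At d36 that cluster had 185 CPM (113 to 285), against 56.7 CPM (28.3 to 101) in the cluster led by Chst1. In general capillary-like cells it was 24.8 CPM at d15, 35.95 CPM at d22 and 38.1 CPM at d36, or 37.0-fold, 25.5-fold and 24.0-fold below d0. Arterial-like cells had 8.63 CPM at d15 (5 counts in 2 cells), 19.95 CPM at d22 and 0 of 98 cells with a count at d36, at least 20.8-fold lower than at d0 against a floor of 3 molecules in those cells. With the classes weighted to their d0 shares, Cyp1a1 was 33.5-fold lower at d15, 21.3-fold at d22 and 18.7-fold at d36, the last outside the interval of the unweighted value. Clusters within a class were not weighted.

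Venous-like cells were the class with the most Cyp1a1 at d22. They had 56.0 CPM at d15 (19.98 to 124; 60 cells), 202 CPM at d22 (157 to 256; 131 cells) and 241 CPM at d36 (130 to 408), the last from 38 cells, under the minimum of 50. At d22 they were 4.39-fold below d0 (ratio 0.23, 0.17 to 0.30), whereas the ratio was 0.036 (0.030 to 0.043) in aerocyte-like and 0.039 (0.033 to 0.047) in general capillary-like cells. These intervals do not overlap, but the difference between classes has no replicate and was not tested. Of the venous-like cells, 23.7% had a Cyp1a1 count at d22, against 54.2% at d0. At d22 the order of the named classes with at least 50 cells thus put venous-like cells first, then aerocyte-like (69.6 to 96.5 CPM). General capillary-like (30.05 to 42.7 CPM) and arterial-like cells (10.3 to 34.9 CPM) came after, with intervals that overlap. The 144 cells of clusters that the markers left unnamed had 112 CPM at d22 (76.2 to 160), a ratio to d0 of 0.20 (0.13 to 0.30). A smaller drop at d22 was therefore not particular to venous-like cells.

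**Figure D5:**
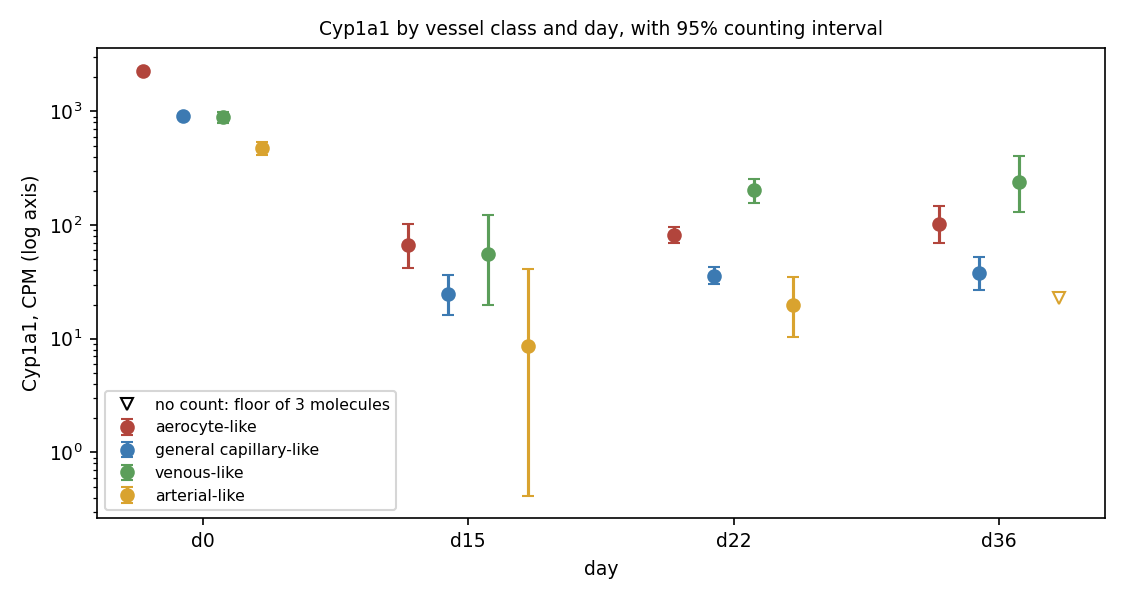
Cyp1a1 in CPM (log axis) by day in aerocyte-like, general capillary-like, venous-like and arterial-like cells, with 95% counting intervals; an open triangle marks the floor of 3 molecules where no count was seen, and the venous-like point at d36 rests on 38 cells. Aerocyte-like cells are highest at d0 at 2278 CPM, and venous-like cells at d22 at 202 CPM.

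Ahr was seen in every class at d0. It had 180 CPM in aerocyte-like (159 to 203), 174 in arterial-like (137 to 217), 156 in general capillary-like (142 to 172) and 109 in venous-like cells (77.6 to 148), and 95.4 CPM in lymphatic-like cells on 13 counts. The intervals of the first 3 overlap, and those of venous-like and aerocyte-like cells do not. Cells of the Malat1-poor clusters had 41.0 CPM (16.8 to 83.5). In general capillary-like cells its ratio to d0 was 1.00 on d15 (0.83 to 1.20), 1.01 on d22 (0.89 to 1.15) and 0.90 on d36 (0.74 to 1.09), and in aerocyte-like cells every interval included 1 as well. Arterial-like cells differed on both days of low depth, with 88.1 CPM at d15 (ratio 0.51, 0.26 to 0.92) and 89.6 CPM at d36 (ratio 0.52, 0.25 to 0.96), against 174 CPM at d0. Those values rest on 13 cells at d15 and 11 cells at d36.

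Tiparp in arterial-like cells stood at 95.3 CPM on d36, against 31.5 CPM on d0, for a ratio of 3.02 (1.30 to 6.95) from 10 and 17 cells with a count. In aerocyte-like cells it was 33.7 CPM at d36, against 14.1 CPM at d0 (ratio 2.40, 1.02 to 5.29). In general capillary-like cells it was 34.5 CPM at d36, against 30.9 CPM at d0 (ratio 1.11, 0.72 to 1.68). In venous-like cells it was lower at d22, with 20.2 CPM against 53.6 CPM at d0 (ratio 0.38, 0.13 to 0.94). Nqo1 was mostly an aerocyte-like transcript among the capillary cells: 21.7 CPM in aerocyte-like cells at d0 (14.9 to 30.5), against 3.05 CPM in general capillary-like cells (1.38 to 5.84). In aerocyte-like cells it was 8.40 CPM at d22, against 21.7 CPM at d0 (ratio 0.39, 0.20 to 0.73), and at d15 and d36 it rested on 2 and 3 cells.

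Within d0, Nqo1 was seen more often in cells with Cyp1a1 than in cells without it. At full depth 38 of 58 cells with Nqo1 had Cyp1a1 (65.5%), against 38.8% of the 2569 cells without Nqo1, with median depths of 11588 and 7597 counts. For Ahr the shares were 43.4% of cells with it and 37.6% of cells without it, with median depths of 8878 and 7233 counts. In aerocyte-like cells the level of Cyp1a1 was 1696 CPM in cells with Ahr, against 2847 CPM in those without, and 9886 CPM in the 28 cells with Nqo1, against 1692 CPM in those without. After thinning, on 7 cells with Nqo1 in all, 6 of 562 cells with Cyp1a1 had Nqo1 (1.07%, 0.393 to 2.31), against 1 of 2065 cells without it (0.0484%, 0.00123 to 0.270). The same shares were 8.01% and 7.85% for Ahr, and 2.14% and 1.501% for Tiparp. These shares pool classes that differ in Cyp1a1 and in Nqo1. Within aerocyte-like cells, thinned Nqo1 was seen in 2 of 123 cells with Cyp1a1 and 0 of 334 without it. In general capillary-like cells it was seen in 1 of 331 and 0 of 1123, and in venous-like cells in 1 of 29 and 1 of 113. The part of class in the pooled shares was not tested. At full depth, the 51 aerocyte-like cells with 103 to 584 Cyp1a1 counts had 84.5 CPM of Nqo1, seen in 13 of them. The 166 with 1 to 95 counts had 19.5 CPM, in 9 cells, and the 240 with none had 6.06 CPM, in 6 cells. Median depth moved in the same direction, at 16132, 13521 and 12076 counts per cell, and its part in these counts was not tested; CPM is a level per count. Cells share a library and a mouse, so this is a description of 1 pooled sample.

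The rest of the pathway was read from 5 lists. Of 12 genes of the receptor complex, the chaperone subunit gene Hsp90ab1 was at 1206 CPM at d15, 1127 CPM at d22 and 1116 CPM at d36, against 1341 CPM at d0 (ratios 0.90, 0.84 and 0.83), and the chaperone gene Hsp90aa1 at d22 at a ratio of 0.94. The co-chaperone gene Ptges3 had ratios of 1.18, 0.95 and 1.34 at d15, d22 and d36. Only Ncoa3, a coactivator, was called on any later day: it stood at d15 at 65.1 CPM, with 38.9 CPM at d0 (ratio 1.67, 1.32 to 2.11), which makes 1 of 6 measured genes at d15 and 0 of 5 and 0 of 6 at d22 and d36, beside 6.43%, 2% and 7.57% of all measured genes. Its ratio was 1.36 at d36 (1.05 to 1.75). Arnt, the partner of the receptor, had 18.5 CPM at d15, against 17.1 CPM at d0, and was too low to be measured. For the list, the median log2 ratio to d0 was 0.06, -0.04 and 0.02 at d15, d22 and d36. It was taken over the 10 genes with at least 10 CPM on either day. Over all measured genes, a set with a higher limit on level, the median was 0.01, 0.01 and -0.03.

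Of 16 textbook targets of the receptor, 3 were measured on each later day and 1, Cyp1a1, was called lower each time, beside 2.29%, 1.74% and 3.32% of all measured genes at d15, d22 and d36. That call is of the gene the choice rested on, and nothing is read from it. Nfe2l2, which encodes NRF2, had ratios of 1.00, 0.95 and 0.84 at d15, d22 and d36, and Socs2, a suppressor of cytokine signalling, 0.98, 0.78 and 0.96. The repressor gene Ahrr had 2 counts in all, at d15, and Aldh3a1, Ugt1a6a, Ugt1a6b, Gsta2 and Serpinb2 had none. The median log2 ratio of the 4 genes with at least 10 CPM was -0.02 at d15, -0.30 at d22 and -0.15 at d36. Those genes were Cyp1a1, Tiparp, Nfe2l2 and Socs2, so the median includes the gene the choice rested on and nothing is read from it. Over all measured genes, a set with a higher limit on level, the median was 0.01, 0.01 and -0.03. Of 8 enzymes of tryptophan breakdown that can make receptor ligands, 0 were measured. Ido1 had 8.06 CPM on d0 (185 counts), 6.80 on d15 (47), 14.8 on d22 (407) and 6.12 on d36 (41). Its ratio to d0 was 0.84 on d15 (0.40 to 1.62), 1.83 on d22 (1.28 to 2.65) and 0.76 on d36 (0.35 to 1.52). The other 7 had at most 8 counts on any day.

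NRF2 targets were a list of 17 that shares Nqo1 and Nfe2l2 with the targets above, with 8 genes measured. Over its 13 genes with at least 10 CPM on either day, the median log2 ratio was -0.36 at d15, -0.08 at d22 and -0.23 at d36. Over all measured genes, a set with a higher limit on level, it was 0.01, 0.01 and -0.03. The ferritin light chain gene Ftl1 was the only one called, with 1927 CPM on d15, against 3107 CPM on d0 (ratio 0.62, 0.60 to 0.64). It had ratios of 0.83 at d22 and 0.74 at d36. That is 1 of 8 measured genes at d15 and 0 of 8 at d22 and d36, beside 6.43%, 2% and 7.57% of all measured genes. Thioredoxin, Txn1, had ratios of 0.75 at d15 and 0.80 at d36. The peroxiredoxin gene Prdx1 had 1.11 and 1.16 on those days and the glutathione reductase gene Gsr 1.24 and 1.31. At d22 the heavy ferritin chain gene Fth1 had a ratio of 0.91 and Gsr one of 1.01, and Keap1, which marks NRF2 for destruction, 0.97.

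Of 23 other enzymes of oxidative and conjugating metabolism, 14, 14 and 15 were measured at d15, d22 and d36. At d15 1 of them was called higher and 1 lower, and at d36 2 higher and 2 lower, not all named here. Of all measured genes 6.43%, 2% and 7.57% were called at d15, d22 and d36. At d15 the cytochrome b5 reductase gene Cyb5r3 was called lower, at 230 CPM against 396 CPM at d0 (ratio 0.58). At d22 none was called, with ratios of 0.71 for Cyb5r3, 0.77 for the glutathione transferase gene Gstp1 and 1.08 for the lung P450 gene Cyp4b1. At d36 the sulfotransferase gene Sult1a1 (ratio 1.90, from 58.9 CPM at d36 and 30.9 CPM at d0) was called higher, and the glutathione transferase gene Mgst1 (0.60) and the flavin monooxygenase gene Fmo2 (0.64) lower. Gstm2 had a ratio of 0.68 and Gstp1 one of 1.11 at d15. Cyp4b1 had 3054 CPM at d22, against 2835 CPM at d0.

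Across the 2627 cells of d0, the 5 genes most correlated with Cyp1a1 among 6267 compared, by Pearson's r of log counts per 10000, were Hspa8 (0.28), a constitutive chaperone, Cd74 (0.24), the MHC class II invariant chain, Npr3 (0.19), the natriuretic peptide clearance receptor, Dnaja1 (0.19), a chaperone partner of Hspa8, and Gstp1 (0.18). Within general capillary-like cells alone, r was 0.36 for Cd74 and 0.28 for Hspa8. For the other members r was 0.15 for Nqo1, 0.03 for Ahr, 0.02 for Tiparp and -0.01 for Cyp1b1. Such values are weak and sparse, and all cells share a day and depth varies among them.

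Groups of day and class with at least 50 cells were taken from aerocyte-like, general capillary-like, arterial-like and venous-like cells, 15 in all. Cells of the Malat1-poor and unnamed clusters were left out here. Among 3818 genes, the log2 level most like that of Cyp1a1 was that of Thbd (r = 0.89), the anticoagulant thrombin receptor thrombomodulin. Nptn (0.85), Cmtm6 (0.83), Pros1 (0.80), the anticoagulant protein S, and Itgb1 (0.79), an integrin chain, came next. Thbd itself was 1090 CPM at d0 and its ratio to d0 was 0.60 at d15, 0.53 at d22 and 0.46 at d36, a much smaller drop than that of Cyp1a1. Over the 11 groups of the later days alone r was 0.73 for Thbd, 0.83 for Nptn and for Cmtm6, 0.69 for Pros1 and 0.42 for Itgb1. Ahr had r = 0.44, Nqo1 0.38, Cyp1b1 0.30 and Tiparp -0.49 over the 15 groups, and 0.59, 0.29, -0.11 and -0.84 over the 11. The groups share days, libraries and classes, so these values only describe the pattern.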

How the data were processed

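Counts of unique molecular identifiers (UMIs) per gene and cell were used as the authors deposited them, unscaled; per the submitters' processing notes they come from Cell Ranger 2.1.1 and build mm10. Which annotation and which cell filter the authors used is not given in the sources used here. The design text states 4 libraries per sample, and values pile up at multiples of 4. Whether each molecule was counted in 4 libraries was not tested, so intervals use counts divided by 4 (Poisson for CPM, exact binomial for ratios, Clopper-Pearson for shares), the floor is 3 molecules, or 12 counts, and thinning is to 500 molecules in place of the 2000 UMIs first planned. The median cell held between 1006 (d36) and 2208 (d0) molecules. The 5 genes, the lists and the tests were chosen with earlier results of these data known.

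A minimum of 300 genes per cell and a maximum of 10% mitochondrial counts left out 19 cells. The rest were clustered in scanpy 1.11.5 with leidenalg 0.10.2 (2000 variable genes without the 5 members, 30 components, 15 neighbours, resolution 1.0; 21 clusters) and named from fixed markers. Rules that left out 138 cells led by fibroblast, epithelial or mixed genes, and those for the Malat1-poor and unnamed clusters, were set after seeing the clusters. Doublets were not called. Of 9000 barcodes, 36 occurred in more than 1 day. Genes named are the 5 members, of each list the 2 measured genes with the highest and the lowest ratio on each later day, the called genes, and the 5 most like Cyp1a1 over cells and over groups; Emp2, AY036118, Ccl21a, Ido1, Arnt, Cyp1a2 and the list genes without a count were named after their values were seen. Scaling factors came from edgeR 4.0.16 and DESeq2 1.42.0, with no count test, since each day is 1 sample. The interval and size rule were tested on simulated data. Those data were drawn from the same counting model that the intervals assume, with no spread between cells or mice. That test therefore cannot show how well the intervals hold for a gene as uneven over cells as Cyp1a1. Promoter windows and positions are from RefSeq and GENCODE on GRCm38; 4 of 5 members had a window. Some genes of the lists are not reported here.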

Additional observations from a re-analysis of the deposited data

Results flagged for a closer look

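Cyp1a1 was also seen in cells left out of the endothelial sums, and was flagged for lying above the floor of 3 molecules in data that the comparisons do not use. At d0 the 27 left-out cells led by fibroblast genes had 1054 CPM of Cyp1a1 (825 to 1328), with a count in 10 of them (37.0%). The 16 left-out cells led by epithelial genes had 237 CPM (120 to 418), with a count in 6 (37.5%). Those shares, with intervals of 19.4 to 57.6 and 15.2 to 64.6, lie close to the 39.4% of endothelial cells. They lie above the 2 of 22 lymphatic-like cells (9.09%, 1.12 to 29.2), but the intervals overlap. Median depth was 5600 counts in the lymphatic-like cells, against 9127 counts in the fibroblast-led cells and 7645 in all endothelial cells. On later days the fibroblast-led cells had 0 counts in 8 cells at d15, 8 counts in 1 of 26 cells at d22 and 4 counts in 1 of 22 cells at d36. The part of free RNA and of doublets in these values was not tested.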

How the results depend on the processing

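No paired analysis was possible because the cell names carry the day and no library, so the library numbers in the labels could not be tied to cells. No called value changed direction under an alternative that gave a value. The ratio of Cyp1a1 to d0 kept its direction under 12 alternatives at each later day, between 0.0124 and 0.0316 at d15, 0.0342 and 0.0579 at d22, and 0.0273 and 0.0535 at d36. It left its main interval without the 1% of cells highest in the gene (0.0124 at d15, 0.0342 at d22 and 0.0273 at d36). Those cells held a larger share of its counts on each later day than at d0, so this setting lowers the ratio by construction. It also left the interval thinned to 500 molecules (0.0129 at d15 and 0.0579 at d22), and with classes weighted to the shares of d0 (0.0535 at d36). The cause of the last 2 was not tested. The number of called genes grew to 1130 at d15, 529 at d22 and 1071 at d36 with no filter on low counts, which tests more genes, and was 53, 11 and 70 with a size rule of 2, which is stricter by construction. Intervals on the counts as deposited, added after seeing the data with 5 other alternatives, left the number of calls at 239, 71 and 276.

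The ratio of Ahr to d0 stayed between 0.86 and 1.05 at d15, 1.05 and 1.11 at d22, and 0.78 and 1.12 at d36, so at d15 and d36, where it was not called, it lay on either side of 1; that of Nqo1 ran from 0.048 to 0.82 at d22. Under 4 other ways to make the classes, Cyp1a1 was highest in aerocyte-like cells at d0 and in venous-like cells at d22, while the lowest class at the later days and the order of general capillary-like and venous-like cells at d0 varied. Among values of single genes, classes and lists, 103 moved beyond their main interval (list medians: by 0.1, log2) and 524 did not. Depth limits what can be said of Cyp1b1, Nqo1 and the small classes, and no value carries the spread between mice.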

Other observations

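The genes within 100 kb of Cyp1a1 on chromosome 9 were read as well. Of 9 neighbours, Scamp2, Ulk3, Csk, Edc3, Clk3 and Arid3b were expressed, and their ratios to d0 lay between 0.81 and 1.42 over the 3 later days. Csk, the kinase that restrains SRC family kinases, had 83.4 CPM at d15, 81.0 CPM at d22 and 80.1 CPM at d36, against 86.7 CPM at d0. Edc3, on the downstream side of Cyp1a1, had ratios of 0.96, 0.94 and 1.16. None of these 6 neighbours had a drop of the kind seen in Cyp1a1.

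Single counts of Cyp1a1 were frequent at d0. Of its 1036 d0 cells with a count, 22.4% held exactly 1 and 11.4% exactly 4, whereas of all non-zero values at d0 11.6% equalled 1 and 45.1% equalled 4. For Ahr 10.1% of the d0 cells with a count held exactly 1 and 49.8% exactly 4. The 232 cells with 1 Cyp1a1 count make up 22.4% of the share of positive cells at d0 but little of its level; with values under 4 set to 0 the share was 27.3%, and the fold drops were 36.4 at d15, 22.6 at d22 and 24.4 at d36.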
